A study of Arabidopsis thaliana with 6 samples.

Results

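The cytokinin turnover genes described here are 10 genes of Arabidopsis thaliana: the 7 cytokinin oxidase/dehydrogenase genes CKX1 (AT2G41510), CKX2 (AT2G19500), CKX3 (AT5G56970), CKX4 (AT4G29740), CKX5 (AT1G75450), CKX6 (AT3G63440) and CKX7 (AT5G21482), and the 3 isopentenyltransferase genes IPT3 (AT3G63110), IPT5 (AT5G19040) and IPT7 (AT3G23630). They were taken by locus identifier from the 31276 genes of an RNA-seq table, and all 10 were found. The table holds 6 libraries of wild-type Col-0 plants: 3 biological replicates labelled 7DAC, from hypocotyl explants kept for 7 days on callus-inducing medium (day 7), and 3 labelled 0DAC, from hypocotyls of 1-week-old seedlings collected at excision (day 0). No library carries a mutation or a transgene, the labels do not give the hormones in the medium, and the tissue label reads callus for the day 0 libraries as well. The comparison asks how the transcripts of the explant changed once callus had formed. Values are TPM, transcript abundance relative to the whole library and corrected for transcript length, so that levels can be set beside each other between genes.

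Cytokinins are adenine-derived hormones that promote cell division and shoot formation, and a callus-inducing medium usually supplies a cytokinin together with an auxin. Adenylate isopentenyltransferases such as IPT3, IPT5 and IPT7 catalyse the first step of cytokinin synthesis, joining an isoprenoid side chain to an adenine nucleotide. LOG enzymes then release the active free base. CKX enzymes end the signal irreversibly by cutting the side chain off, and transcription of several CKX genes and of the type-A response regulators is induced by cytokinin itself.

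Coding sequences read from the RefSeq assembly TAIR10.1 were 1506 to 1914 bases long for the CKX genes, in 4 or 5 coding exons, and 990 to 1011 bases for the IPT genes, in 1. Pairs were aligned within the CKX genes and within the IPT genes, and had 58.0% to 76.5% identical aligned bases, CKX2 and CKX4 being the most alike. The longest identical run within any of these pairs, CKX2 and CKX3, was 26 bases. How reads common to relatives were counted is not given in the sources used here. For CKX3, CKX7 and IPT5, which changed in the comparison below, the 250 bases before the annotated gene start are printed 5′ to 3′ on the strand of the gene, since these windows hold the promoter closest to the start. None overlaps another annotated gene. Capitals mark 3 short motifs searched on both strands: AGATT and GGATT, core letters bound by the type-B response regulators of cytokinin signalling, and TGTCTC, the auxin response element.
CKX3, chr5:23048293-23048542, minus strand: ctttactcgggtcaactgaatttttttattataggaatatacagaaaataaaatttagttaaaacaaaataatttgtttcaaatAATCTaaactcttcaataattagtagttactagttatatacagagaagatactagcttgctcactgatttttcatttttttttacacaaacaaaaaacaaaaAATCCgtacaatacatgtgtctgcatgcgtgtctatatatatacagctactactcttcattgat
CKX7, chr5:7226356-7226605, plus strand: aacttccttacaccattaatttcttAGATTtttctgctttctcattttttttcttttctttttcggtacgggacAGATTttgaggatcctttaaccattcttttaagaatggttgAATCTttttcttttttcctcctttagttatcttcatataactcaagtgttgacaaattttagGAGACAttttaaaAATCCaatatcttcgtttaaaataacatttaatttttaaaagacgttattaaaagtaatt
IPT5, chr5:6363714-6363963, minus strand: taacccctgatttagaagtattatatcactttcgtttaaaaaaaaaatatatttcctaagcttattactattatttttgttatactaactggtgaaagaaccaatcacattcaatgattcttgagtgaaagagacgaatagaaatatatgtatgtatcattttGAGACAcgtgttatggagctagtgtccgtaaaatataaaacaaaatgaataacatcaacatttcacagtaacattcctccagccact
The CKX3 window held AGATT once and GGATT once, both on the opposite strand and with their first base at positions -166 and -64 from the start. The CKX7 window held AGATT at 3 places, GGATT at 1 and TGTCTC at 1. The IPT5 window held only TGTCTC, once. Over the 27443 windows of this length at nuclear protein-coding genes 63.7% held AGATT, 38.0% GGATT, 77.5% either of them and 10.9% TGTCTC, so matches to the first pair are common and single out no gene. Of the windows not printed, that of CKX5, which did not pass the test below as deposited, held TGTCTC as well. Those of CKX1, CKX2, CKX6 and IPT7 held AGATT or GGATT, and that of CKX4 none of the 3 motifs. A match is not evidence of binding, and a window without one says only that these letters are absent from it.

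Libraries of either group differed in how much of their TPM lay on nuclear protein-coding genes, from 37.6% to 81.0% at day 7 and from 59.5% to 86.4% at day 0. Replicate 2 had the highest share in both groups, and every member detected at day 7 read highest in that library. Depth cannot be recovered from TPM and is unknown. The median log2 difference of all tested genes was 0.05 as deposited, -0.01 after median-of-ratios scaling and 0.41 when TPM was recomputed over nuclear protein-coding genes alone. Marker genes of cell types differed between the groups too. The 5 green tissue markers summed to 15.3 to 26.7 TPM at day 7 and 110 to 585 TPM at day 0, and all 5 fell. The 5 epidermis markers summed to 21.4 to 81.5 TPM at day 7 and 420 to 902 TPM at day 0, and all 5 fell. The 3 root cap markers summed to 59.6 to 144 TPM at day 7 and 12.6 to 20.8 TPM at day 0, and all 3 rose. The summed green and epidermis markers were thus lower, and the summed root cap markers higher, in every day 7 library, although the epidermis gene PDF1 overlapped between the groups. BRN1 and BRN2 of the root cap list entered the test only through their day 7 libraries, so they could be called only as higher. Of the 6 vascular markers 2 rose, ATHB8 and PXY of the procambium and cambium, 1 fell and 3 did not pass, and they summed to 161 to 313 TPM at day 7 and 98.8 to 122 TPM at day 0. The 8 markers of lateral root founder cells and callus summed to 174 to 405 TPM at day 7 and 290 to 382 TPM at day 0; 3 rose and 3 fell, the falls being the auxin-induced genes LBD16, LBD29 and GATA23. LBD29 and GATA23 entered the test only through their day 0 libraries, so they could be called only as lower. LBD16 was at 5.66 to 16.7 TPM at day 7 and 102 to 142 TPM at day 0, and LBD29 and GATA23 averaged 0.380 and 0.393 TPM at day 7 and 62.1 and 79.7 TPM at day 0. These levels, and the tissue label reading callus, stand beside the description of the day 0 tissue as freshly excised; what DAC abbreviates is not given, and the state of the day 0 tissue was not tested. In such bulk samples a change in the share of a cell type and a change in RNA per cell cannot be told apart, and the part of these shifts in the results below was not tested.

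Among the 10 genes CKX3 rose at day 7, CKX7, IPT3 and IPT5 fell, and CKX1, CKX4, CKX5 and CKX6 did not pass the test. The test was limma-trend on log2(TPM + 1), day 7 minus day 0, and a gene was called at a Benjamini-Hochberg adjusted p below 0.05 over the 18608 tested genes. Over all tested genes 29.6% were called, 13.4% as higher and 16.2% as lower, against 4 of the 8 tested members. Testing needed at least 3 libraries with 1 TPM or more, which 8 of the 10 genes had. IPT3 and IPT5 met it through their day 0 libraries alone, so their tested level had to be the higher one at day 0, and CKX2 and IPT7 did not meet it. The median log2 difference of the 8 was -0.52, against 0.05 over all tested genes. The groups did not overlap for CKX3, higher at day 7, nor for CKX7, IPT3 and IPT5, lower at day 7. That held for 38.7% of all tested genes, 19.3% with day 7 higher and 19.5% with day 7 lower.

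The same test on other scales called far more genes. Median-of-ratios scaling, which brings the libraries to a common level by their typical gene, gave 1 rise and 4 falls among the 8 members, against 65.1% of all tested genes called, 31.2% as higher and 33.9% as lower. The groups then did not overlap for 6 of the 8, CKX4 and CKX5 being the additions, against 70.8% of all tested genes, 34.5% with day 7 higher and 36.3% with day 7 lower. When TPM was recomputed over nuclear protein-coding genes 2 members rose and 3 fell, against 71.2% of all tested genes called, 49.6% as higher and 21.7% as lower.

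**Figure D1:**
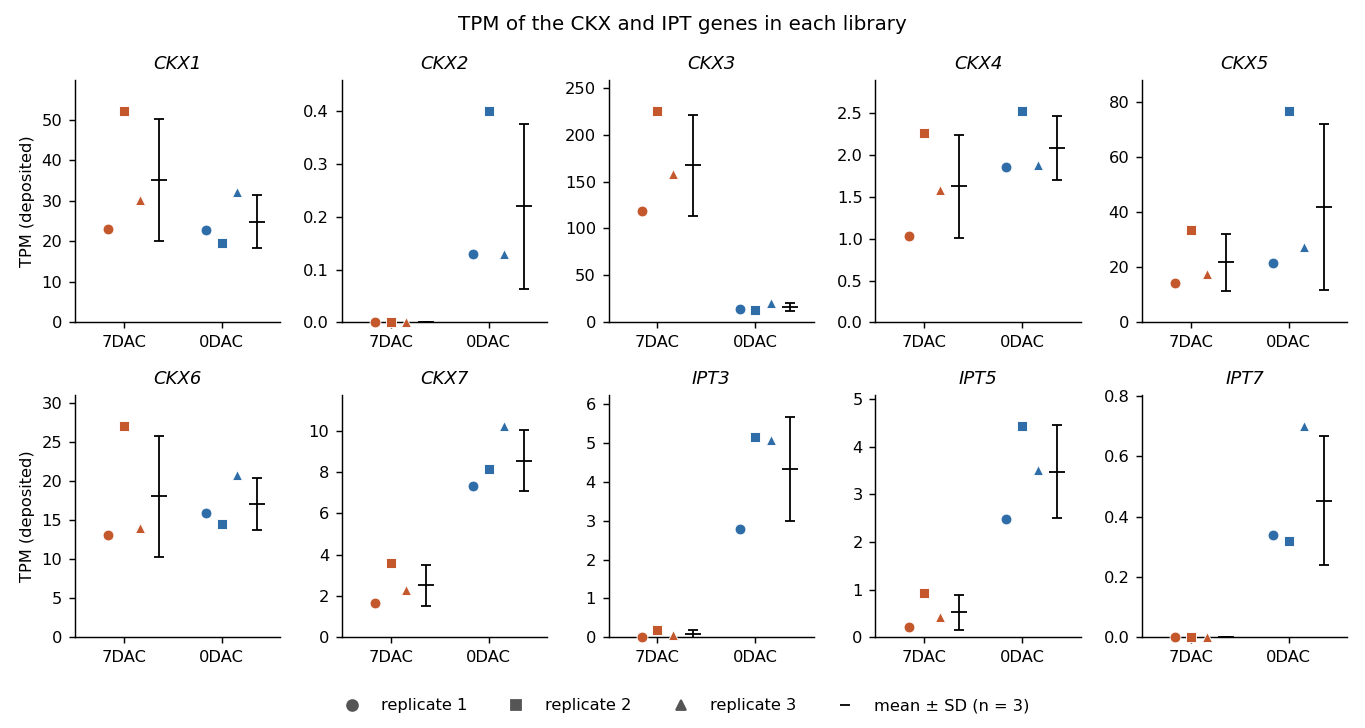
Deposited TPM (y axis, from 0, a separate scale for each gene) of the 7 CKX and 3 IPT genes in each 7DAC and 0DAC library. Symbols mark the replicate and the bar the mean ± SD (n = 3). The 3 day 7 libraries lie above all day 0 libraries for CKX3 (118 TPM or more against 21.1 TPM or less) and below them for CKX2, CKX7, IPT3, IPT5 and IPT7.

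CKX3 was the most abundant of the 10 genes in callus and had the largest log2 difference on the log2(TPM + 1) scale. Together with CKX5 its product is known to restrain the activity of the flowering shoot meristem. CKX3 stood at 118, 225 and 159 TPM in day 7 replicates 1, 2 and 3, against 14.6, 13.3 and 21.1 TPM in day 0 replicates 1, 2 and 3. Every day 7 library lay far above every day 0 library. The means were 167 ± 53.6 and 16.3 ± 4.16 TPM (± SD of 3 libraries), a 10.2-fold higher level at day 7 and a log2 difference of 3.26 ± 0.43 (± SE; adjusted p = 1.51e-12 by limma). After median-of-ratios scaling the day 7 libraries read 167, 144 and 162 TPM and the day 0 libraries 18.7, 10.8 and 21.3 TPM, and the day 7 values lay closer together (log2 difference 3.19 ± 0.22, limma adjusted p = 1.09e-05). On the deposited scale the fit replaced each gene's own variance by the value expected at its mean level, so these SEs reflect all genes of that level.

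CKX7, which encodes the cytosolic member of the family, went the other way. It was at 1.65, 3.57 and 2.29 TPM in day 7 replicates 1, 2 and 3, against 7.31, 8.13 and 10.2 TPM in the day 0 replicates. The highest day 7 library stood below the lowest day 0 library. Its mean was 2.50 ± 0.978 TPM at day 7 and 8.55 ± 1.49 TPM at day 0 (± SD of 3 libraries), 3.42-fold lower at day 7, with a log2 difference of -1.47 ± 0.42 (± SE; adjusted p = 2.27e-03 by limma). Scaling drew the day 7 values together, to 2.32, 2.28 and 2.34 TPM, against 9.36, 6.61 and 10.3 TPM at day 0.

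CKX5, a secreted oxidase, had the highest mean of the members at day 0, through replicate 2; in replicates 1 and 3 CKX1 was higher. It stood at 14.5, 33.7 and 17.4 TPM in day 7 replicates 1, 2 and 3, against 21.6, 76.5 and 27.4 TPM in the day 0 replicates. Day 0 replicate 2 was the highest by far, and the remaining libraries of the groups overlapped. The log2 difference was -0.78 ± 0.44 and did not pass (limma adjusted p = 0.178). After median-of-ratios scaling the groups no longer overlapped, with 20.3, 21.5 and 17.8 TPM at day 7 against 27.6, 62.2 and 27.7 TPM at day 0, and CKX5 fell (log2 difference -0.84 ± 0.29, limma adjusted p = 0.0321). It did not pass on the nuclear protein-coding scale (log2 difference -0.40, limma adjusted p = 0.251), and without day 0 replicate 2 the log2 difference on the deposited scale was -0.24.

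CKX1 and CKX6 were among the more abundant members in both groups, at ranks 2 and 4 by mean at day 7 and 2 and 3 at day 0. CKX1, whose product is held in the endomembrane system, was at 23.2, 52.1 and 30.2 TPM in day 7 replicates 1, 2 and 3, against 22.9, 19.6 and 32.3 TPM in the day 0 replicates. CKX6, which encodes a secreted oxidase, was at 13.2, 27.0 and 14.0 TPM at day 7, against 15.9, 14.5 and 20.8 TPM at day 0. For both genes day 7 replicate 2 was the highest of all and the groups overlapped. CKX1 had a log2 difference of 0.43 ± 0.44 (± SE; adjusted p = 0.502 by limma) and passed as higher only on the nuclear protein-coding scale (0.83, limma adjusted p = 7.58e-03), a scale on which the median of all genes moved up as well. CKX6 had a log2 difference of 0.02 ± 0.44 (± SE; adjusted p = 0.979 by limma), and its sign turned with the scale (-0.05 after median-of-ratios scaling).

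CKX4 and CKX2, the pair most alike in coding sequence, were low in all libraries. CKX4 was at 1.03, 2.26 and 1.58 TPM in day 7 replicates 1, 2 and 3, against 1.85, 2.52 and 1.88 TPM in the day 0 replicates, and the groups overlapped (log2 difference -0.25, SE 0.35, adjusted p = 0.634 by limma). CKX2, which is quickly induced by cytokinin in seedlings, had 0 TPM in each day 7 library, against 0.13, 0.4 and 0.13 TPM in the day 0 replicates. These levels are too low to be read as expression with confidence, since the depth is unknown. When every gene above 0 was tested, CKX2 did not pass (log2 difference -0.28, SE 0.13, adjusted p = 0.130 by limma).

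**Figure D2:**
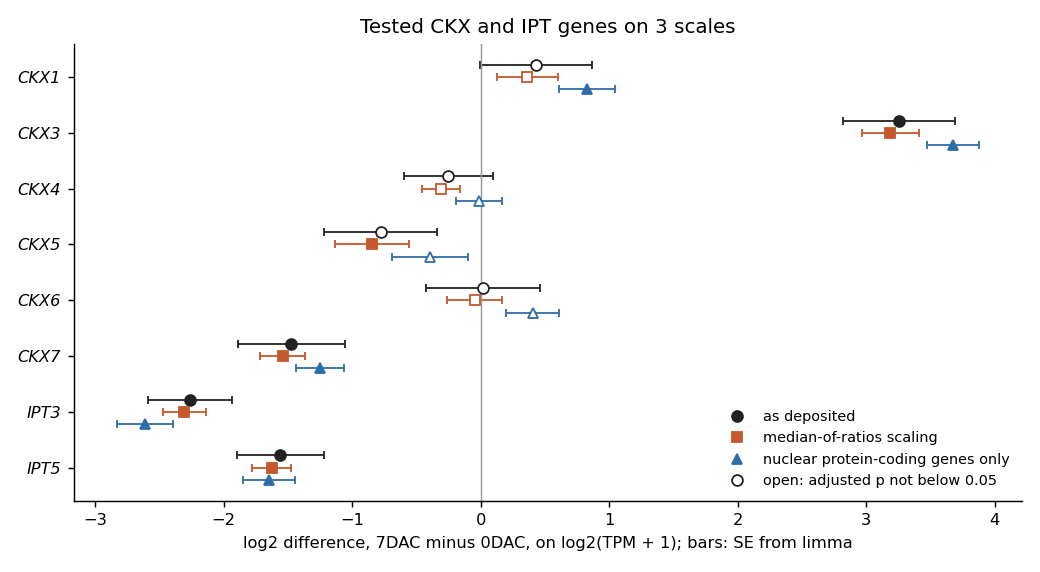
Log2 difference between 7DAC and 0DAC (x axis, on log2(TPM + 1)) of the 8 tested CKX and IPT genes on 3 scales, with the SE from limma; filled symbols have an adjusted p below 0.05. CKX3, CKX7, IPT3 and IPT5 are filled on all 3 scales, CKX5 only after median-of-ratios scaling and CKX1 only with nuclear protein-coding genes.

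CKX3 dominated the CKX transcripts in callus, whereas several genes shared them at day 0. Ratios between genes of 1 library do not depend on its scale. CKX3 made up 68.9%, 65.4% and 70.8% of the summed CKX TPM in day 7 replicates 1, 2 and 3, against 17.3%, 9.86% and 18.5% in the day 0 replicates. Its share was therefore the majority in every callus library and a minority in every day 0 library. CKX1 made up 14.0% ± 0.984 at day 7 and 23.3% ± 7.68 at day 0, CKX6 7.26% ± 0.876 at day 7 and 16.0% ± 4.52 at day 0, and CKX7 1.01% ± 0.0421 at day 7 and 7.89% ± 1.63 at day 0 (± SD of 3 libraries). CKX5 held 7.76% to 9.81% at day 7 and 24.1% to 56.7% at day 0, with the highest share in replicate 2. The ratio of CKX3 to CKX1 was 4.31 to 5.25 at day 7 and 0.638 to 0.680 at day 0. The 7 genes summed to 172, 343 and 224 TPM in day 7 replicates 1, 2 and 3, against 84.2, 135 and 114 TPM in the day 0 replicates. Without CKX3 the sums were 53.5, 119 and 65.4 TPM at day 7, against 69.6, 122 and 92.7 TPM at day 0, and overlapped.

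**Figure D3:**
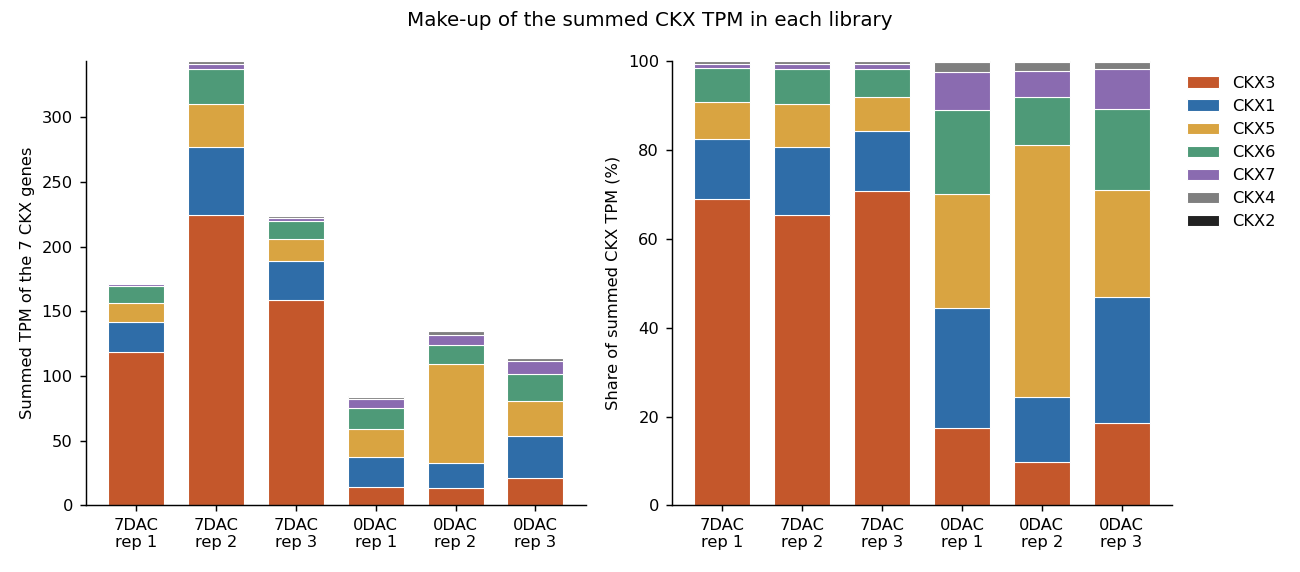
Summed TPM of the 7 CKX genes (left) and the share of each gene in that sum in percent (right) for each 7DAC and 0DAC library. CKX3 takes 65.4% to 70.8% of the bar in the day 7 libraries and 9.86% to 18.5% in the day 0 libraries, where CKX5, CKX1 and CKX6 make up most of it.

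By mean level the 10 genes ranked CKX3, CKX1, CKX5, CKX6, CKX7, CKX4, IPT5, IPT3 in callus, with CKX2 and IPT7 both at 0. CKX3 stood clear of CKX1, and CKX6 clear of CKX7, in that their library ranges did not overlap. The ranges of CKX1, CKX5 and CKX6 overlapped from each to the next, as did those of CKX7 and CKX4. Such ranges also carry the scale of each library. Within every day 7 library CKX1 was above CKX5, CKX5 above CKX6 and CKX7 above CKX4. The day 7 ranges of CKX4 and IPT5, and of IPT5 and IPT3, did not overlap but nearly met, at 1.03 against 0.92 TPM and 0.22 against 0.19 TPM. With unknown depth such low levels carry no stated precision. At day 0 the order was CKX5, CKX1, CKX6, CKX3, CKX7, IPT3, IPT5, CKX4, IPT7, CKX2. There the ranges of the first 4 overlapped from each to the next, and CKX7 lay apart from its neighbours on either side. IPT3, IPT5 and CKX4 overlapped in turn and stood clear of IPT7. Within every day 0 library CKX1 was above CKX6, IPT3 above IPT5 and IPT5 above CKX4. CKX5 was above CKX1 in only 1 day 0 library, and CKX6 above CKX3 in 2.

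Of the members, the adenylate isopentenyltransferase genes IPT3, IPT5 and IPT7 were close to 0 in the day 7 libraries and low in the day 0 libraries. IPT3, a phloem-expressed gene known for its induction by nitrate, was listed at 0, 0.19 and 0.07 TPM in day 7 replicates 1, 2 and 3, against 2.78, 5.15 and 5.07 TPM in the day 0 replicates. IPT5, known from the root cap and from lateral root primordia, was at 0.22, 0.92 and 0.42 TPM at day 7, against 2.48, 4.43 and 3.51 TPM at day 0. All day 7 libraries lay below all day 0 libraries for both genes. IPT3 had a log2 difference of -2.26 ± 0.33 (± SE; adjusted p = 1.12e-10 by limma). IPT5 had a mean 6.68-fold lower at day 7 and a log2 difference of -1.56 ± 0.34 (± SE; adjusted p = 3.13e-05 by limma). With a pseudocount of 0.1 in place of 1 the same genes had log2 differences of -4.65 and -2.65, so the size of these falls rests on the pseudocount.

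IPT7, the last of the 3, had 0 TPM in each day 7 library, against 0.34, 0.32 and 0.70 TPM in day 0 replicates 1, 2 and 3. IPT7 passed as lower when every gene above 0 was tested (log2 difference -0.53, SE 0.15, adjusted p = 7.39e-03 by limma). It entered that test only through its day 0 libraries, so it could be called only as lower. That fit called 6149 of 23496 genes, 2577 as higher and 3572 as lower. The 3 root cap markers, which stand for a tissue in which IPT5 is known, were called as higher, 2 of them able to move only that way. IPT5 was called as lower, and it was tested through its day 0 libraries alone. For IPT5 and those 2 markers the filter thus fixed the direction of any call, so their contrast carries no information on that tissue. The vascular markers, which stand for the tissue in which IPT3 is known, moved both ways. The phloem regulator APL fell, at 2.16 ± 0.814 TPM at day 7 and 7.51 ± 0.804 TPM at day 0 (± SD of 3 libraries; log2 difference -1.46, SE 0.41, adjusted p = 2.03e-03 by limma). The sieve element gene SEOR1 was at 7.47 ± 1.54 TPM at day 7 and 6.58 ± 1.00 TPM at day 0 and did not pass. The part of these tissues in the IPT values was not tested.

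Set against each other within a library, degradation transcripts outweighed those of the 3 IPT genes in both groups, and more so at day 7. The summed CKX TPM was 781, 309 and 457 times the summed TPM of IPT3, IPT5 and IPT7 in day 7 replicates 1, 2 and 3, against 15.0, 13.6 and 12.3 times in the day 0 replicates. The day 7 ratios rest on IPT sums of 0.22, 1.11 and 0.49 TPM, so their size is uncertain. With all 9 IPT genes in the sum the ratio was 14.2, 13.1 and 14.7 in day 7 replicates 1, 2 and 3, against 3.39, 4.03 and 3.57 in the day 0 replicates. The groups did not overlap with either sum. Without CKX3 the ratio to the 3 genes was 107 to 243 at day 7 and 9.98 to 12.4 at day 0.

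The remaining IPT genes held most of the IPT transcripts in every library. IPT2 and IPT9 encode enzymes that modify transfer RNA, a source of cis-zeatin. IPT9 was at 9.44 ± 3.94 TPM at day 7 and 14.0 ± 1.80 TPM at day 0, and IPT2 at 7.22 ± 2.78 TPM at day 7 and 7.76 ± 1.86 TPM at day 0 (± SD of 3 libraries). Neither passed (log2 differences -0.58 ± 0.45 and -0.12 ± 0.44, each ± SE, adjusted p = 0.351 and 0.869 by limma), and IPT9 fell after median-of-ratios scaling (-0.65 ± 0.16, limma adjusted p = 6.89e-03). IPT3, IPT5 and IPT7 made up 3.09% ± 1.21 of all IPT TPM at day 7 and 27.1% ± 3.94 at day 0. IPT4, IPT6 and IPT8 were listed at 0 throughout, and IPT1, singled out after its values were seen, was at 0.34, 0.83 and 0.57 TPM in the day 7 replicates and 0.12, 0 and 0.06 TPM in the day 0 replicates.

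Activation by LOG enzymes and side-chain hydroxylation come after IPT in the pathway. Of 9 LOG genes 5 were tested: 2 rose, 1 fell and 2 did not pass, with a median log2 difference of 0.58, against 29.6% of all tested genes called and a median of 0.05. LOG3 was at 12.7, 27.8 and 17.6 TPM in day 7 replicates 1, 2 and 3, against 3.51, 6.10 and 4.13 TPM in the day 0 replicates (log2 difference 1.83, SE 0.44, adjusted p = 2.73e-04 by limma). LOG7 was at 1.07, 2.49 and 0.99 TPM at day 7, against 8.35, 13.3 and 7.86 TPM at day 0 (log2 difference -2.12, SE 0.41, adjusted p = 2.02e-06 by limma). The groups overlapped for neither. LOG4, the other gene that rose, which was named after its values were seen, averaged 4.59 ± 2.07 TPM at day 7 and 1.27 ± 0.388 TPM at day 0 (± SD of 3 libraries). CYP735A1 and CYP735A2, the hydroxylases that make trans-zeatin forms, stayed at or below 0.49 and 0.33 TPM at day 7 and 0.08 and 0.55 TPM at day 0 and were not tested.

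**Figure D4:**
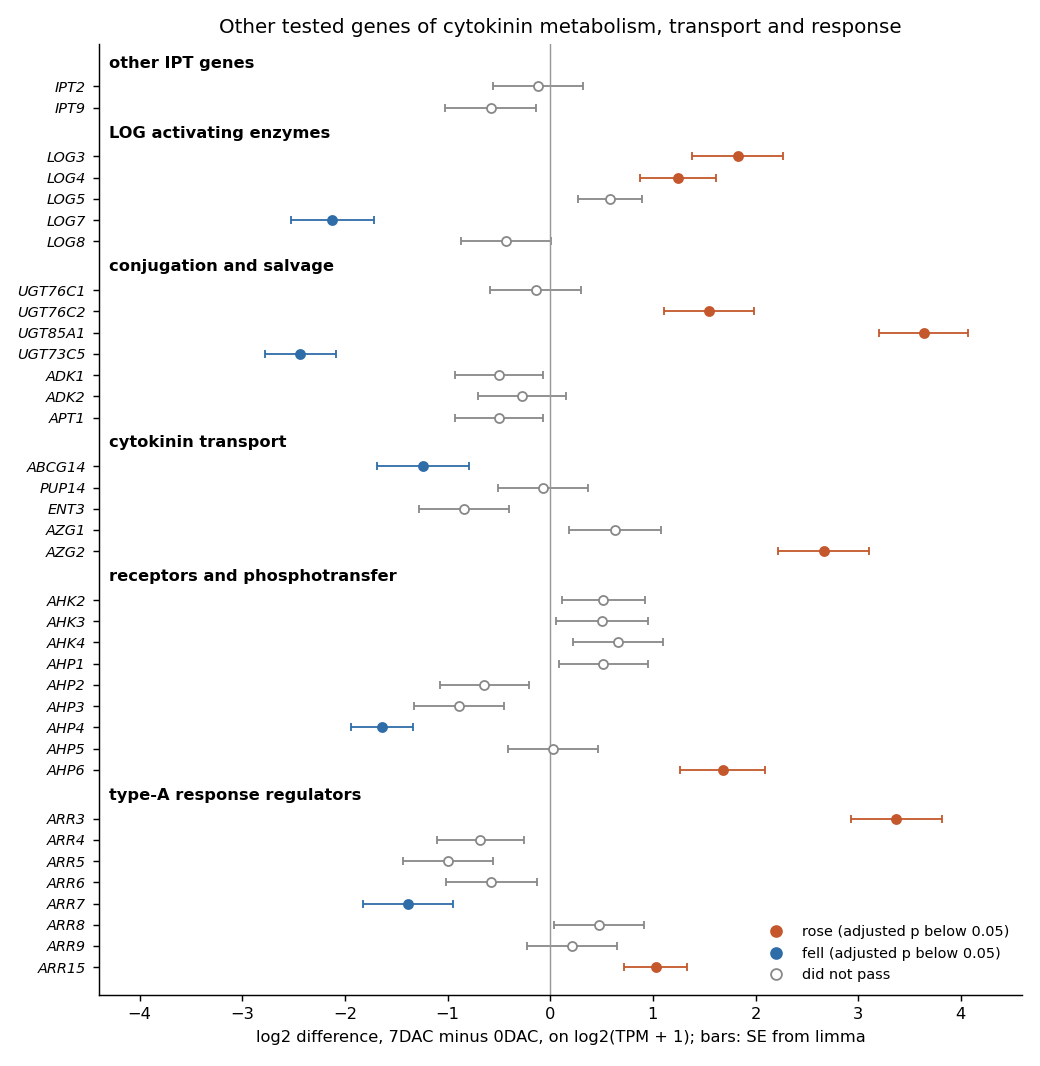
Log2 difference between 7DAC and 0DAC (x axis, on log2(TPM + 1), SE from limma) of the other tested genes of cytokinin synthesis, activation, conjugation, transport and response on the deposited scale. UGT85A1, ARR3 and AZG2 lie farthest to the right and UGT73C5 and LOG7 farthest to the left, and most genes have an adjusted p of 0.05 or more.

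Among 8 genes of conjugation and salvage 7 were tested, of which 2 rose, 1 fell and 4 did not pass, with a median log2 difference of -0.27, against 29.6% of all tested genes called. UGT85A1, a zeatin O-glucosyltransferase that makes a storage form, was at 16.1, 47.3 and 21.3 TPM in day 7 replicates 1, 2 and 3, against 1.19, 0.88 and 1.32 TPM in the day 0 replicates. That is 25.0-fold higher at day 7, with no overlap (log2 difference 3.64, SE 0.43, adjusted p = 1.96e-15 by limma). UGT76C2, a cytokinin N-glucosyltransferase named after its values were seen, rose as well, with 41.9 ± 19.8 TPM at day 7 and 12.8 ± 1.28 TPM at day 0 (± SD of 3 libraries; log2 difference 1.55, SE 0.44, adjusted p = 2.37e-03 by limma). UGT73C5, which can glucosylate cytokinins and brassinosteroids, fell to 0.187 ± 0.187 TPM at day 7, against 5.40 ± 0.766 TPM at day 0 (log2 difference -2.44 ± 0.34, limma adjusted p = 3.24e-11), and was tested through its day 0 libraries alone. On the median-of-ratios scale there were 2 rises and 4 falls among 7 tested, against 65.1% of all tested genes called. ADK1, ADK2 and APT1, genes of salvage, were the further falls, each with a log2 difference between -0.57 and -0.34. None of these salvage genes passed as deposited or on the nuclear protein-coding scale, where their log2 differences were -0.10, 0.12 and -0.10.

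Of 9 transport genes 5 were tested: 1 rose, 1 fell and 3 did not pass, with a median log2 difference of -0.07, against 29.6% of all tested genes called. AZG2, a purine and cytokinin transporter known from cells over lateral root primordia, was at 14.1, 35.2 and 19.5 TPM in day 7 replicates 1, 2 and 3, against 1.98, 3.13 and 2.58 TPM in the day 0 replicates (log2 difference 2.66, SE 0.44, adjusted p = 2.13e-08 by limma). ABCG14, the exporter that loads root cytokinin for transport to the shoot, was at 6.93, 12.8 and 7.94 TPM at day 7, against 16.7, 29.7 and 22.7 TPM at day 0 (log2 difference -1.24, SE 0.44, adjusted p = 0.0212 by limma). The groups overlapped for neither, but the ABCG14 call was lost when day 7 replicate 3, day 0 replicate 2 or day 0 replicate 3 was left out (highest limma adjusted p = 0.174). The median-of-ratios scale gave 2 rises and 3 falls among 6 tested, against 65.1% of all tested genes called.

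Of the 9 receptors and phosphotransfer genes, all tested, 1 rose, 1 fell and 7 did not pass, with a median log2 difference of 0.50, against 29.6% of all tested genes called. AHP1, which passes the phosphate from receptors to response regulators, was at 57.4 ± 30.4 TPM at day 7 and 36.3 ± 3.37 TPM at day 0, and its relative AHP2 at 30.8 ± 13.2 TPM at day 7 and 46.2 ± 6.52 TPM at day 0 (± SD of 3 libraries; log2 differences 0.52 ± 0.43 and -0.64 ± 0.44, each ± SE, adjusted p = 0.404 and 0.283 by limma). The genes that passed, named after their values were seen, were AHP6, a pseudo-phosphotransfer protein that inhibits the signal (3.97 to 16.1 TPM at day 7 and 1.55 to 3.29 TPM at day 0), and AHP4 (0.0700 ± 0.121 TPM at day 7 and 2.34 ± 0.510 TPM at day 0), which was tested through its day 0 libraries alone. On the median-of-ratios scale there were 4 rises, among them the receptor genes AHK3 and AHK4, and 3 falls, against 65.1% of all tested genes called.

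Of the 10 type-A response regulators, which are cytokinin-induced repressors of the response, 8 were tested, and 2 rose, 1 fell and 5 did not pass, with a median log2 difference of -0.18, against 29.6% of all tested genes called. ARR3 was at 35.1, 101 and 60.8 TPM in day 7 replicates 1, 2 and 3, against 5.06, 3.18 and 7.07 TPM in the day 0 replicates (log2 difference 3.37, SE 0.44, adjusted p = 6.85e-13 by limma). ARR7 was at 13.2, 32.1 and 16.4 TPM at day 7, against 51.2, 49.3 and 54.5 TPM at day 0 (log2 difference -1.39, SE 0.44, adjusted p = 7.33e-03 by limma), but it no longer passed when either day 7 replicate 3 or day 0 replicate 3 was left out (highest limma adjusted p = 0.118). The other call, ARR15, named after its values were seen, was a rise at low level, 1.86 ± 0.761 TPM at day 7 and 0.383 ± 0.199 TPM at day 0, and it met the test minimum only through its day 7 libraries. The median-of-ratios scale gave 1 rise and 4 falls among 7 tested, against 65.1% of all tested genes called. The nuclear protein-coding scale gave 4 rises and 2 falls among 8, against 71.2%, so which direction prevailed in this family depended on the scale.

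Across the 6 libraries the transcript profile most like that of CKX3 was that of SUS1 (AT5G20830), sucrose synthase 1, with a Pearson r of 0.9996 on log2(TPM + 1). SUS1 was at 139, 280 and 180 TPM in day 7 replicates 1, 2 and 3, against 16.5, 15.6 and 23.2 TPM in the day 0 replicates, close to the CKX3 values in every library. AT4G34220 and AT1G56680, which the reference does not name, followed with 0.9993 each. Of 15310 genes compared 229 had an r of at least 0.99, and the libraries share both their group and their scale, so this describes likeness over 6 points and no more.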

How the data were processed

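The deposited table holds TPM rounded to 2 decimals; per the submitters' processing notes STAR 2.7.10a, RSEM 1.3.1 and the build TAIR10 were used, with no role given for each, and strand, filters and multi-read treatment are not given in the sources used here. Per the labels' protocols, total RNA from TransZol Up went into a TruSeq library kit. All 6 columns were used. Depth is unknown, since TPM keeps none.

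The groups were compared with limma 3.58.1 (limma-trend, R 4.3.3) on log2(TPM + 1), day 7 minus day 0, over the 18608 genes that reached 1 TPM in 3 or more libraries, with Benjamini-Hochberg adjustment over all of them and two-sided tests. Folds are ratios of mean TPM, which the log2(TPM + 1) scale understates where levels are low. Alternatives were median-of-ratios scaling, TPM over nuclear protein-coding genes, other pseudocounts and filters, no variance trend, a replicate block and leaving out each library, the last over the same 18608 genes. The test was checked on simulated data. Nothing says that replicates came from separate plants beyond their being called biological replicates.

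Sequences and gene models came from RefSeq TAIR10.1, matched by locus identifier; the table itself carries no coordinates. The upstream window of 1 member is not reported here. The position of a motif is that of its first base before the gene start. Coding sequences were aligned with Biopython 1.88. The remaining steps used numpy 2.4.6, pandas 2.3.3, matplotlib 3.10.9 and Python 3.11.15.

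The members, the lists of pathway and marker genes and the rule for named genes were chosen with earlier results of these data known. All 10 members are named; from each further list came the 2 called genes with the largest differences and a mean of at least 5 TPM in whichever group was higher, then the largest called the other way, or the 2 most abundant tested genes where fewer than 2 qualified. Lists of up to 3 genes are named in full. Likeness was ranked for the member with the largest difference.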

Additional observations from a re-analysis of the deposited data

How the results depend on the processing

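The calls of CKX3, CKX7, IPT3 and IPT5 held under every alternative that tested them, with limma adjusted p up to 2.35e-05, 0.0467, 1.16e-04 and 4.60e-03. A TPM minimum of 5 left IPT3, IPT5 and CKX4 untested and so 2 calls among the members. All other alternatives gave 4 or 5, while the calls over all genes ran from 3560 to 13428 over the alternatives. As deposited 4 of the 8 tested members stood beside 29.6% of all tested genes. After median-of-ratios scaling and with nuclear protein-coding genes 5 of 8 stood beside 65.1% and 71.2%. CKX5 fell on the median-of-ratios scale (-0.84), with the replicate block (-0.78), with both together (-0.84) and without day 7 replicate 2; over the libraries left out singly it ran from -1.13 to -0.24. CKX1 passed with nuclear protein-coding genes (0.83). CKX6, never called, turned to -0.047 after median-of-ratios scaling, with or without the replicate block, and ran from -0.29 to 0.20 over the libraries left out. IPT2 turned to 0.24 with nuclear protein-coding genes and ran from -0.38 to 0.046. The cause of these shifts was not tested.

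Over all genes 12148 were called after median-of-ratios scaling (65.1% of those tested) and 13428 with nuclear protein-coding genes (71.2%), against 5512 as deposited (29.6%). The replicate block gave 10119, and the block with that scaling 12069. Between 3560 and 7219 were called when single libraries were left out (lowest without day 7 replicate 3). After median-of-ratios scaling the calls were 1 of 2 tested among the other IPT genes, 6 of 7 in conjugation and salvage and 5 of 6 in transport. Receptors and phosphotransfer had 7 of 9 and type-A regulators 5 of 7. With the replicate block added the calls in these lists were 1, 6, 5, 7 and 6. The replicate block alone gave 4 in transport, 7 in receptors and 5 in type-A regulators. Nuclear protein-coding genes gave 5 of 7, 7 of 9 and 6 of 8 tested for those lists, against 71.2% of all tested genes. No filter gave 1 in the other IPT genes, 5 in LOG genes and 4 in transport, against 6149 of all 23496 genes tested. A TPM minimum of 5 gave 0 in receptors, where AHP4 and AHP6 were then too low to be tested, against 3770 calls over all genes. Leaving out single libraries gave 1 to 3 calls in transport, 2 to 4 in receptors and 1 to 6 in type-A regulators. The ratio of CKX to IPT sums was 14.0 at day 7 and 3.66 at day 0 with all 9 IPT genes, 161 and 11.6 without CKX3, and 383 to 619 and 12.9 to 14.3 over libraries left out, against 516 and 13.6.

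Whether the replicate numbers pair the libraries was not settled. Across genes on the deposited scale, deviations from the group means of same-numbered libraries correlated at 0.10, 0.16 and 0.03. Day 7 replicates 1 and 2 correlated best with their own number, and day 7 replicate 3 with day 0 replicate 1 (0.12). Such a correlation does not register a shift shared by all genes of a library. The nuclear protein-coding share increased from replicate 1 to 3 to 2 in both groups (37.6%, 52.0% and 81.0% at day 7, 59.5%, 71.2% and 86.4% at day 0). With unknown depth, levels below 1 TPM carry no stated precision.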

Other observations

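CKX5 in day 0 replicate 2 stood apart from its group, at 76.5 TPM against 21.6 and 27.4 TPM in day 0 replicates 1 and 3, and at 62.2 against 27.6 and 27.7 TPM after median-of-ratios scaling. The other CKX genes of that library were not all raised alike: after scaling CKX1, CKX3, CKX6 and CKX7 were each lowest there among the day 0 libraries (15.9, 10.8, 11.8 and 6.61 TPM). CKX4 lay between day 0 replicates 1 and 3 (2.05 against 2.37 and 1.90 TPM after scaling). CKX2 was highest there (0.325 against 0.166 and 0.132 TPM after scaling), at a level below 1 TPM. Among pathway genes too low for the main test, LOG1, LOG9, PUP1, ENT6 and ARR16 were lower at day 7 when every gene above 0 was tested (limma log2 differences -0.43, -0.56, -1.32, -0.80 and -0.83, adjusted p = 0.0400, 7.07e-03, 8.16e-06, 9.41e-04 and 4.08e-03), and IPT1 was higher (0.57, limma adjusted p = 8.42e-03). LOG1, LOG9 and PUP1 had 0 TPM in every day 7 library, so they could be called only as lower. LOG2, LOG6, CYP735A1 and CYP735A2 did not pass. The same fit called 6149 of 23496 genes, 2577 as higher and 3572 as lower.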
